A study of Saccharomyces cerevisiae with 27 samples.

Results

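A pair of budding yeast double mutants, eco1 rad61 and eco1 fob1, was compared directly on Affymetrix expression arrays. The groups were taken from the strain labels, and both carry the same experiment date, so the contrast needs no term for the date. It rests on 6 of the 27 arrays of the series, 3 cultures of each strain. Differences are written as eco1 rad61 minus eco1 fob1, so a positive value means higher signal in eco1 rad61. The question addressed is how cells with an impaired cohesin acetyltransferase differ in expression when the second mutation removes Rad61 rather than Fob1.

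Both double mutants carry the eco1 mutation that the series design names as eco1-W216G, and neither group therefore stands for cells with normal Eco1. The eco1 rad61 strain also carries rad61Δ and keeps FOB1, and the eco1 fob1 strain carries fob1Δ and keeps RAD61. All cultures grew at 30 °C in YPD with a complete supplement mix and were taken in exponential phase. Biotin-labelled cRNA was made from 300 ng of total RNA. The single deletions rad61 and fob1, also with 3 cultures each and of the same date, served as the comparison without the eco1 mutation. Wild type and the eco1 single mutant come from a later date and are given only as levels. Each genotype is represented by 1 strain isolate. A p-value here thus measures only how repeat cultures of an isolate vary. That spread was pooled over all 9 groups of the series, those of the later date included.

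Cohesin is the ring complex that holds sister chromatids together and helps to fold chromosomes. Eco1 acetylates its Smc3 subunit during DNA replication, which stabilises the ring on chromatin, while Rad61, called Wapl in animals, promotes release of rings that are not acetylated. Fob1 binds the ribosomal DNA repeats and stalls replication forks there, which keeps forks from running against transcription of the ribosomal RNA gene and also drives recombination between the repeats. Removal of either protein is known to ease defects of eco1 mutant cells.

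The arrays of both strains were of like brightness, with median intensities between 1227 and 1256. Pearson correlations across probe sets were 0.997 among the eco1 rad61 arrays, from 0.995 to 0.996 among the eco1 fob1 arrays, and from 0.989 to 0.992 between the strains. The 17 probe sets for ribosomal RNA averaged 11.26, 12.06 and 10.86 (log2 signal) in the eco1 rad61 cultures and 10.74, 11.81 and 11.71 in the eco1 fob1 cultures, so the groups overlapped. Both strains had the a-type mating signature, with the a-factor gene MFA1 between 13.05 and 13.31 in all 6 arrays and the α-factor gene MF(ALPHA)1 between 4.12 and 4.98. Among the single deletions, rad61 replicate 2 stood apart, with a median of 0.81 over the genes of chromosome IX. This array enters the comparison with the single deletions, and values without it are given there.

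FOB1 and RAD61, the deleted genes, matched the labels. FOB1 signal was 9.26, 9.24 and 9.56 (log2) in the eco1 rad61 cultures and 4.24, 3.89 and 3.94 in the eco1 fob1 cultures. RAD61 signal was 3.80, 3.67 and 3.84 in eco1 rad61 and 7.01, 6.78 and 7.37 in eco1 fob1. In each case the deletion strain lay far below the other with no overlap, with differences of 5.33 ± 0.12 (log2, limma SE, n = 3) for FOB1 and -3.28 ± 0.17 for RAD61. ECO1 signal was 4.80 ± 0.24 (SD, n = 3) in eco1 rad61 and 4.92 ± 0.17 in eco1 fob1, and the difference of -0.12 ± 0.11 did not pass the test (adjusted p = 0.598, limma with Benjamini-Hochberg adjustment). Both double mutants lay with the eco1 single mutant, at 4.61 ± 0.07, and below rad61, fob1 and wild type, at 7.90 ± 0.10, 7.99 ± 0.09 and 7.85 ± 0.10, while the allele is named as a substitution. Where the ECO1 probes lie was not analysed here. MCD1, the cohesin subunit cut at anaphase, differed by 0.04, and its meiotic counterpart REC8 by -0.02, neither called. The chromosomal neighbours of the deleted genes were looked at because a deletion cassette sits beside them. PSF1, a GINS replication factor next to RAD61, was lower by -0.40 ± 0.09 (adjusted p = 0.00905) in eco1 rad61, and its difference between the single deletions was -0.33. ALT2, next to FOB1, had -0.44 ± 0.14 and was not called (adjusted p = 0.0741), and the other neighbours tested (YDR109C, PDS1 and TRS85 for FOB1, DAD1 and RPL4B for RAD61) were not called either.

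**Figure D1:**
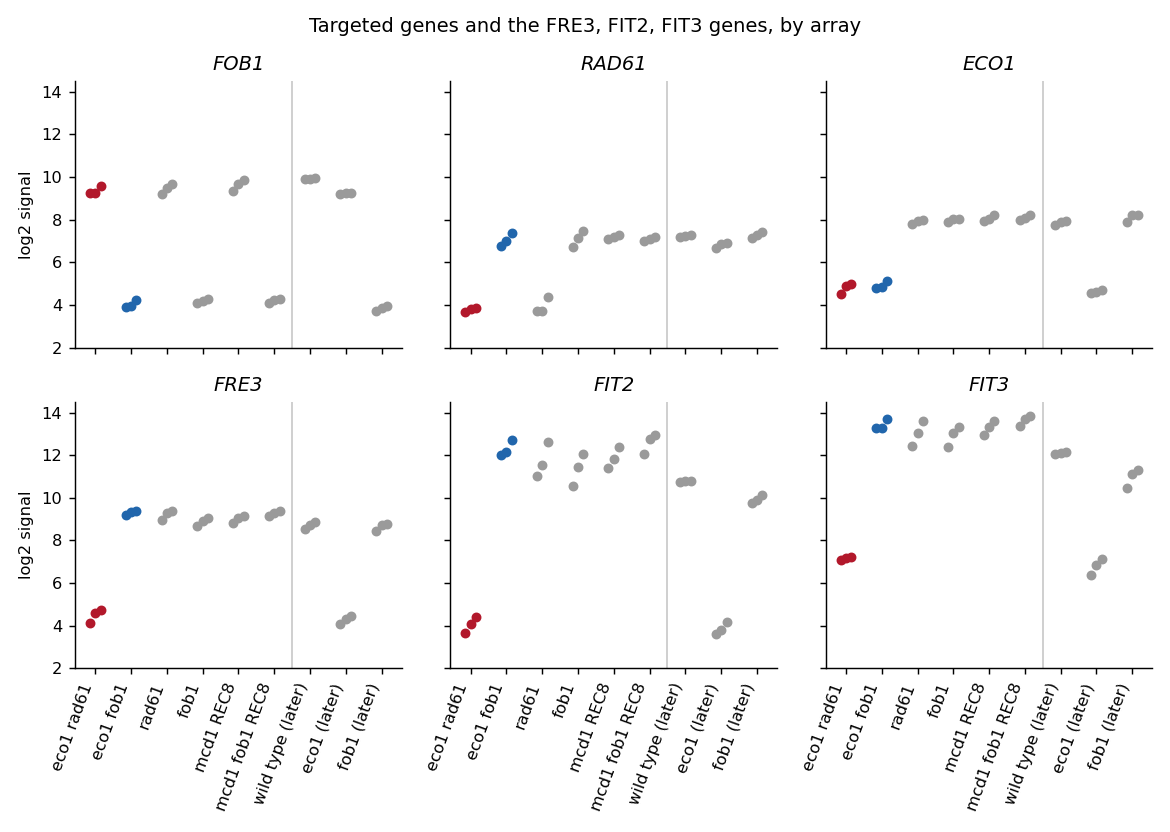
Log2 signal (vertical axis) of 6 genes in every array, 3 points per group in order of value, with eco1 rad61 in red, eco1 fob1 in blue, other groups in grey, and groups of the later date right of the grey line. FRE3, FIT2 and FIT3 sit low in eco1 rad61 and in the eco1 single mutant, at group means of 4.49 and 4.28 for FRE3, and high in all other groups.

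The double mutants differed at 284 of 5716 probe sets, or 4.97% (two-sided limma, Benjamini-Hochberg adjusted p under 0.05). Of these, 196 (3.43%) were higher and 88 (1.54%) lower in eco1 rad61. Most differences were modest: the median size among the called probe sets was 0.44 (log2), and 15 higher and 8 lower probe sets reached 2-fold. The arrays of the groups did not overlap at 279 of the called probe sets. Over all probe sets, the 3 eco1 rad61 arrays lay above the 3 eco1 fob1 arrays at 847 (14.8%) and below them at 768 (13.4%), which is the background for the counts of non-overlapping genes given below. The median difference over all probe sets was -0.02. Of the 5716, 2595 had a positive difference, which is the background for the counts of signs given below. In bulk cultures, a change in every cell and a change in a share of the cells cannot be told apart.

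**Figure D2:**
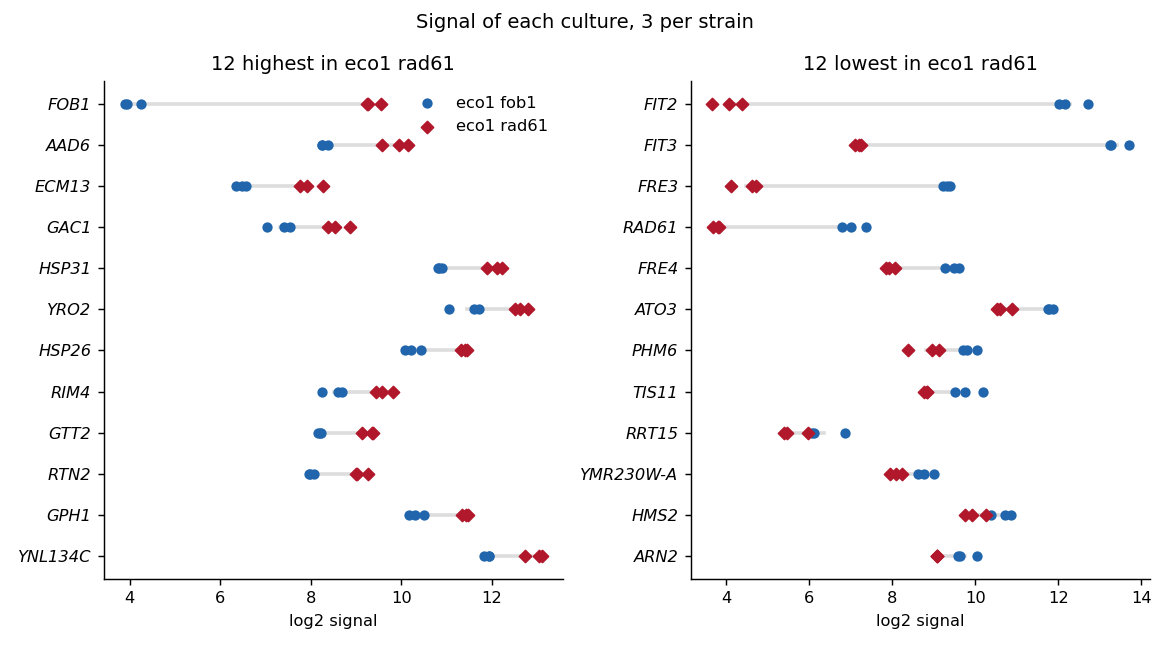
Log2 signal (horizontal axis) of each eco1 rad61 culture (red diamonds) and eco1 fob1 culture (blue circles) for the 12 genes with the highest and the 12 with the lowest called difference, with a grey line between the group means. The absence of overlap follows from the rule that chose these 24 genes; beyond FOB1, the highest difference is 1.60 for AAD6, and the lowest is -8.26 for FIT2.

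The lowest signals in eco1 rad61 came from 3 genes of iron uptake that lie side by side on chromosome XV. FIT2, a cell wall mannoprotein that holds iron-siderophore complexes, was 4.39, 3.65 and 4.07 (log2) in the eco1 rad61 cultures and 12.72, 12.15 and 12.01 in the eco1 fob1 cultures. Its relative FIT3 was 7.24, 7.10 and 7.20 against 13.71, 13.26 and 13.28. FRE3, a ferric reductase that acts on siderophores, was 4.61, 4.12 and 4.73 against 9.38, 9.33 and 9.21. Every eco1 rad61 culture was far below every eco1 fob1 culture, with differences of -8.26 ± 0.36 for FIT2, -6.24 ± 0.27 for FIT3 and -4.82 ± 0.14 for FRE3 (adjusted p from 1.19e-16 to 1.84e-13, limma).

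In eco1 rad61, FIT2, at 3.65 to 4.39, and FRE3, at 4.12 to 4.73, lay near the signal that FOB1 and RAD61 show where they are deleted, 3.67 to 4.24. The size of their differences is therefore limited by the background of the array and is not read as a fold change. The same genes were high in both single deletions, where FIT2 averaged 11.74 in rad61 and 11.36 in fob1, FIT3 13.02 and 12.92, and FRE3 9.21 and 8.89. They were low in the eco1 single mutant, at 3.87, 6.79 and 4.28, and high in wild type, at 10.77, 12.09 and 8.71. The eco1 fob1 strain thus lay with wild type and the deletions at these genes, and eco1 rad61 with the eco1 single mutant. Whether the strains differ in DNA at this place was not tested.

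The genes around this run were looked at on both sides. YOR381W-A, a small reading frame between FRE3 and FIT2, was lower by -0.35 ± 0.07 (adjusted p = 0.00282), but its signal was only 3.46 to 3.88 in the 6 arrays. RDR1, a drug resistance regulator on the FRE3 side, was 9.81, 10.03 and 9.81 in eco1 rad61 and 9.68, 10.22 and 9.79 in eco1 fob1, and did not differ (-0.01 ± 0.14, adjusted p = 0.978). FRE5, a reductase gene next to FIT3, was near background in both strains, from 4.09 to 4.36, so a loss of signal could not have been seen there. Beyond it, YOR385W, with 10.18 to 10.97 in the 6 arrays, had 0.21 ± 0.14 and was not called (adjusted p = 0.445), while YOR387C was called lower by -0.36 ± 0.09 (adjusted p = 0.0296) in signal of 4.26 to 4.75. Farther out on the RDR1 side, the transporter gene AMF1 had -0.36 ± 0.15 and the acetyltransferase gene ATF1 -0.49 ± 0.17, and neither was called (adjusted p = 0.186 and 0.101).

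Some iron uptake genes elsewhere in the genome were also lower in eco1 rad61 than in eco1 fob1. In yeast these genes are switched on by the factors Aft1 and Aft2 when iron is scarce. Of 32 measured genes of the iron regulon, 9 were called lower and 0 higher, against 1.54% of all probe sets called lower. The 32 and the 9 include FIT2, FIT3 and FRE3, given above. The median difference was -0.23, 29 of 32 members had a negative sign, and 19 had no overlap between the strains, against 13.4% of all probe sets. FRE4, a ferric reductase gene on chromosome XIV, was 7.86, 7.92 and 8.07 in eco1 rad61 and 9.27, 9.50 and 9.62 in eco1 fob1, a difference of -1.51 ± 0.16 or 2.85-fold (adjusted p = 3.36e-06). FRE2, another reductase, had -0.65 ± 0.17. Its mean was 7.94 in eco1 rad61 and 8.60 in eco1 fob1, against 7.95 in rad61 and 7.67 in fob1.

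TIS11, an RNA-binding protein that marks messengers of iron-rich proteins for decay when iron is low, was 8.83, 8.76 and 8.83 in eco1 rad61 and 10.19, 9.53 and 9.75 in eco1 fob1. The strains did not overlap, with a difference of -1.01 ± 0.25 (adjusted p = 0.0219). The siderophore transporter genes ARN2 and ENB1 were lower by -0.68 ± 0.18 and -0.56 ± 0.16. The related gene SIT1 had -0.67 ± 0.20 and missed the threshold (adjusted p = 0.0555). ARN2 averaged 9.08 in eco1 rad61 and 9.76 in eco1 fob1, against 9.31 in rad61 and 8.97 in fob1. The SIT1 means were 11.45, 12.13, 11.71 and 11.17 in the same order. At FRE2, ARN2 and SIT1 eco1 fob1 thus lay above both single deletions, and eco1 rad61 lay between them. TIS11, at 8.81 in eco1 rad61, lay below rad61 and fob1, at 9.33 and 9.12, as did FRE4. Of the high-affinity pathway, FET3, its copper oxidase, was lower by -0.28 ± 0.08, and the permease gene FTR1 had -0.22 ± 0.10 and was not called. FIT1, the third mannoprotein gene, had -0.26 ± 0.17 and was not called either.

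AFT1 itself was lower by -0.33 ± 0.09 (adjusted p = 0.0294), with 9.31, 9.55 and 9.46 against 9.74, 9.74 and 9.85, whereas AFT2 had 0.04 ± 0.11. AFT1 is outside the naming rule and was picked after its value was seen. Leaving out any 1 of the 6 arrays lowered the count of called iron genes to between 4 and 6, with 4, 5 and 4 without eco1 rad61 replicates 1, 2 and 3 and 4 and 5 without eco1 fob1 replicates 1 and 3. FIT2, FIT3, FRE3 and FRE4 kept their call in every such fit, while TIS11 and ARN2 lost theirs in some, up to adjusted p = 0.0972 and 0.137.

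Genes of the general stress response were higher in eco1 rad61. Msn2 and Msn4 are the activators that switch on these genes when growth conditions worsen. Of 56 measured targets, 31 were called higher and 0 lower, against 3.43% of all probe sets called higher. The median difference was 0.56, and 46 of 56 lay above eco1 fob1 in all arrays, against 14.8% of all probe sets. HSP26, a small heat shock protein, was 11.45, 11.33 and 11.40 in eco1 rad61 and 10.44, 10.08 and 10.22 in eco1 fob1. Its difference of 1.15 ± 0.32 (2.21-fold, adjusted p = 0.0402) had no overlap, but the call was lost without any 1 of the 6 arrays, up to adjusted p = 0.141.

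Other stress targets were called more firmly. RTN2, a reticulon-like protein of the endoplasmic reticulum, was 9.02, 9.26 and 9.01 against 8.07, 7.98 and 7.97, a difference of 1.09 ± 0.14 (adjusted p = 4.32e-05). RIM4, an RNA-binding protein of meiosis, was 9.44, 9.82 and 9.58 against 8.61, 8.70 and 8.24, or 1.10 ± 0.19. GAD1, glutamate decarboxylase, was higher by 1.03 ± 0.16, and the mitochondrial outer membrane gene OM45 by 1.00 ± 0.17. Other stress genes had differences of like size that did not pass the test: SIP18, a desiccation protein, had 0.99 ± 0.41 and HSP12, a membrane-stabilising protein, 0.89 ± 0.32 (adjusted p = 0.17 and 0.122). The count of 31 fell to 20 and 18 without eco1 fob1 replicates 2 and 3.

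Glycogen and trehalose are the reserve carbohydrates that yeast builds up when growth slows, and their genes were higher in eco1 rad61. Of 21 measured genes, 14 were called higher and 0 lower, against 3.43% of all probe sets called higher, and the median was 0.50. Of the 21, 11 are also in the Msn2 and Msn4 list, so the lists are not independent. GAC1, which brings the Glc7 phosphatase to glycogen synthase, was 8.37, 8.86 and 8.54 in eco1 rad61 and 7.40, 7.55 and 7.04 in eco1 fob1, a difference of 1.26 ± 0.28 (adjusted p = 0.0102). Glycogen phosphorylase, GPH1, which breaks the polymer down, was 11.35, 11.48 and 11.43 against 10.50, 10.32 and 10.18, or 1.09 ± 0.17 (2.13-fold, adjusted p = 0.000366).

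Genes for synthesis and for breakdown thus moved the same way. PGM2, a phosphoglucomutase that feeds glucose units into the pathway, was higher by 0.96 ± 0.16, the glycogen synthase gene GSY2 by 0.61 ± 0.12 and the branching enzyme gene GLC3 by 0.65 ± 0.18. For trehalose, the synthase gene TPS1 was higher by 0.39 ± 0.10, the phosphatase gene TPS2 by 0.43 ± 0.12 and the trehalase gene NTH1 by 0.48 ± 0.08. Without 1 of the 6 arrays the number of called genes in the list ran from 6 to 12, with 7 and 9 without eco1 rad61 replicates 2 and 3 and 8 and 6 without eco1 fob1 replicates 2 and 3.

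**Figure D3:**
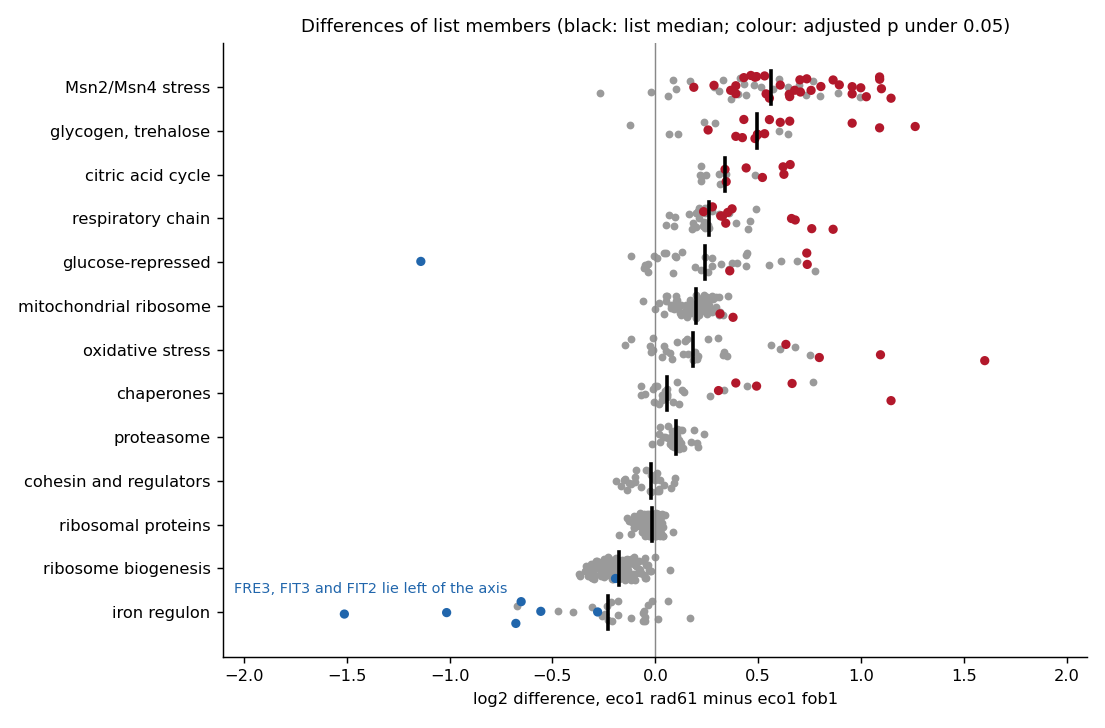
Log2 difference, eco1 rad61 minus eco1 fob1 (horizontal axis), of each member of 13 gene lists, with called members in red (higher) or blue (lower), others in grey, and the list median as a black bar. The medians run from 0.56 for the Msn2 and Msn4 targets to -0.23 for the iron regulon, and the ribosomal protein genes sit in a narrow band around -0.02.

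Part of the respiratory genes was higher, by smaller amounts. All 16 measured genes of the citric acid cycle lay above eco1 fob1 in all arrays, against 14.8% of all probe sets, and 7 of them were called, against 3.43%. The median was 0.34. SDH2, the iron-sulfur subunit of succinate dehydrogenase, was 12.64, 12.70 and 12.68 in eco1 rad61 and 12.10, 12.09 and 11.86 in eco1 fob1, a difference of 0.66 ± 0.13 (adjusted p = 0.00444). The citrate synthase genes CIT1 and CIT3 were higher by 0.62 ± 0.13 each, the succinyl-CoA ligase gene LSC2 by 0.52 ± 0.08, and malate dehydrogenase, MDH1, by 0.44 ± 0.07.

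Of 38 measured genes of the respiratory chain and ATP synthase, all had a positive difference, with a median of 0.26. Of these, 30 lay above eco1 fob1 in all arrays, against 14.8% of all probe sets, and 11 were called higher, against 3.43%. The called genes included all 3 NADH dehydrogenases of yeast mitochondria: NDI1, on the inner face, at 0.68 ± 0.17, and NDE1 and NDE2, on the outer face, at 0.33 and 0.66. STF1, a regulator of the ATP synthase inhibitor, was higher by 0.76 ± 0.17. Cytochrome c differed in both its forms, with CYC1 at 0.28 ± 0.06 and CYC7, the form of stressed or hypoxic cells, at 0.86 ± 0.23, although the CYC7 call was lost without any 1 of the 6 arrays. The number of called respiratory genes was 5, 5 and 6 without eco1 rad61 replicates 1, 2 and 3, 7, 6 and 4 without those of eco1 fob1, and 22 with the arrays of the earlier date alone.

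Of 69 measured mitochondrial ribosomal protein genes, 68 had a positive difference and 40 lay above eco1 fob1 in all arrays, against 14.8% of all probe sets. RML2 at 0.38 ± 0.09 and MRPL40 at 0.31 ± 0.09 were the 2 called, against 3.43% of all probe sets, and the MRPL40 call was lost without any 1 of the 6 arrays. Their median of 0.20 stands beside -0.02 over all probe sets. Among genes repressed by glucose, 3 of 35 were called higher and 1 lower, against 3.43% and 1.54% of all probe sets. The list median was 0.24, and nearly the same, 0.22, between the single deletions. CAT8, the activator of gluconeogenic genes, was 7.32, 7.44 and 7.23 against 6.49, 6.76 and 6.53, or 0.74 ± 0.15, the hexokinase gene HXK1 was higher by 0.74 ± 0.14 and the acetyl-CoA synthetase gene ACS1 by 0.36 ± 0.08. ATO3, a proposed ammonium exporter placed in the same list, moved the other way, with 10.53, 10.89 and 10.59 against 11.76, 11.88 and 11.78, a difference of -1.14 ± 0.13 (2.20-fold, adjusted p = 6.03e-06).

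Of 17 measured genes of the hexose transporters and glucose sensors, 2 were called, both lower, against 1.54% of all probe sets called lower. HXT1, the low-affinity glucose transporter that high glucose induces, was 11.26, 11.37 and 11.17 in eco1 rad61 and 11.86, 11.93 and 11.97 in eco1 fob1, or -0.65 ± 0.09 (adjusted p = 0.000146). The glucose-induced repressor gene MIG3 was lower by -0.58 ± 0.11. Of 22 genes of glycolysis and fermentation, PYK2, the minor pyruvate kinase, was higher by 0.66 ± 0.16 and GPD2, a glycerol-3-phosphate dehydrogenase, lower by -0.50 ± 0.13.

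A few redox genes gave some of the highest single differences. Of 33 oxidative stress genes, 4 were called higher and 0 lower, against 3.43% of all probe sets called higher, with a median of 0.18. AAD6, a putative aryl-alcohol dehydrogenase, was 9.58, 10.15 and 9.95 in eco1 rad61 and 8.38, 8.24 and 8.26 in eco1 fob1. Its difference of 1.60 ± 0.44 (adjusted p = 0.0338) missed the threshold when any 1 of the 6 arrays was left out, and the gene has close relatives that its probes may not separate. GTT2, a glutathione transferase, was 9.14, 9.36 and 9.38 against 8.16, 8.21 and 8.24, or 1.09 ± 0.20 (adjusted p = 0.00162). PRX1, the mitochondrial peroxiredoxin, was higher by 0.80 ± 0.09 and the methylglyoxal reductase gene GRE2 by 0.63 ± 0.17, a call lost without any 1 of the 6 arrays.

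Genes outside the lists stood among the highest as well. HSP31, a methylglyoxalase related to human DJ-1, was 11.89, 12.11 and 12.22 against 10.91, 10.82 and 10.84, or 1.22 ± 0.21 (adjusted p = 0.00121). ECM13, whose function is not settled, was 7.77, 8.28 and 7.91 against 6.35, 6.58 and 6.49, or 1.51 ± 0.25. YRO2, a stress-induced membrane protein, was higher by 1.19 ± 0.25 and YNL134C, an aldehyde reductase, by 1.05 ± 0.22. None of the eco1 rad61 arrays overlapped the eco1 fob1 arrays at these genes. In the methionine and sulfur list SEO1, a putative permease on chromosome I, was the only called gene, higher by 0.94 ± 0.11. In the phosphate list GIT1, the glycerophosphoinositol transporter, was higher by 0.93 ± 0.22, while PHM6 was lower by -1.04 ± 0.30, a call also lost without any 1 of the 6 arrays, and the transporter gene PHO90 by -0.38 ± 0.09.

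Genes that make ribosomes had small negative differences, with almost no called member. Of 137 ribosome biogenesis genes, 136 had a negative difference and 44 lay below eco1 fob1 in all arrays, against 13.4% of all probe sets, with a median of -0.18. Only REA1, an ATPase of large subunit assembly, was called, at -0.20 ± 0.05, and this call too was lost without any 1 of the 6 arrays. Of 36 genes of RNA polymerases I and III, RPO31, the largest subunit of polymerase III, was called at -0.28 ± 0.07, and the median was -0.11. The 127 ribosomal protein genes lay around 0: none was called (limma, 1 at an unadjusted p under 0.05), the median was -0.02, and the differences ran from -0.18 to 0.08. In the translation list only ANB1, the hypoxic form of eIF5A, was called, at -0.63 ± 0.16. The hypoxic ADP/ATP carrier gene AAC3, of the seripauperin and hypoxic list, was lower by -0.64 ± 0.10.

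Few genes of chromosome structure and the cell cycle differed. None of 26 cohesin genes and regulators was called (limma, 2 at an unadjusted p under 0.05), with differences between -0.19 and 0.09. The most different was ESP1, separase, at -0.19 ± 0.06 (adjusted p = 0.0634). None of 21 genes of ribosomal DNA silencing and none of 10 histone genes was called, with 1 and 0 at an unadjusted p under 0.05. Of 13 condensin and Smc5/6 genes, BRN1 was called, at -0.45 ± 0.12. Of 47 genes of the G1 to S transition only RFA1, the large subunit of the single-strand DNA binding factor, was called, at 0.25 ± 0.07. The RFA1 call (adjusted p = 0.0498, limma) was lost under 9 of 15 alternative fits. Of the 47, 38 had a negative sign. Of 30 genes of G2 and mitosis, KIN3, a kinase, at 0.43 ± 0.09, the cyclin gene CLB1 at 0.41 ± 0.09 and YNL058C at 0.36 ± 0.08 were higher. Of 32 genes of the mitosis to G1 transition, BUD9, a bud site marker, at -0.40 ± 0.08 and EGT2, an enzyme of cell separation, at -0.21 ± 0.06 were lower. KIN3 and RFA1 lie on chromosome I, whose genes were slightly higher as a whole, as given below.

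The remaining lists held few called genes. Of 31 DNA damage genes, MAG1, a DNA glycosylase, was higher by 0.59 ± 0.14, besides RFA1. Of 31 chaperone genes 5 were higher, against 3.43% of all probe sets called higher, with a median of 0.06. Of the 31, 4 are also in the Msn2 and Msn4 list. Among the 5 were SSE2 at 0.66 ± 0.18, HSP78 at 0.49 ± 0.11 and HSP104 at 0.39 ± 0.11. Each of these calls was lost in some fits without 1 of the 6 arrays. None of 35 proteasome genes was called by limma (5 at an unadjusted p under 0.05, median 0.10). Of 56 amino acid synthesis genes under Gcn4, LEU2 at -0.62 ± 0.10 and LEU1 at -0.29 ± 0.08 were lower, and LEU2 had -0.38 between the single deletions. The sterol genes ARE1 and ECM22 and the meiosis genes REC102 and SMK1 were lower, by -0.41, -0.29, -0.46 and -0.42. The cell wall gene YGP1 at 0.65, the purine gene ADE1 at 0.25 and SNZ3, of vitamin B6 synthesis and measured by a probe set shared with near copies, at 0.51 were higher. MF(ALPHA)1 was called at 0.59 ± 0.10 in signal near background. The largest difference in the SUN family, NCA3 at 0.34 ± 0.16, was not called.

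The same contrast without the eco1 mutation asked whether these differences belong to RAD61 and FOB1 alone. Between the single deletions, rad61 minus fob1, only FOB1 and RAD61 were called, 2 of 5716 probe sets or 0.0350% (limma), with 279 at an unadjusted p under 0.05. The median difference was 0.02 for the Msn2 and Msn4 targets, 0.02 for the glycogen and trehalose genes, -0.04 for the citric acid cycle, -0.02 for the respiratory chain, 0.22 for the glucose-repressed genes (0.24 between the double mutants) and 0.08 for the iron regulon. Both contrasts come from separate arrays but from 1 model, which shares the estimate of spread.

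**Figure D4:**
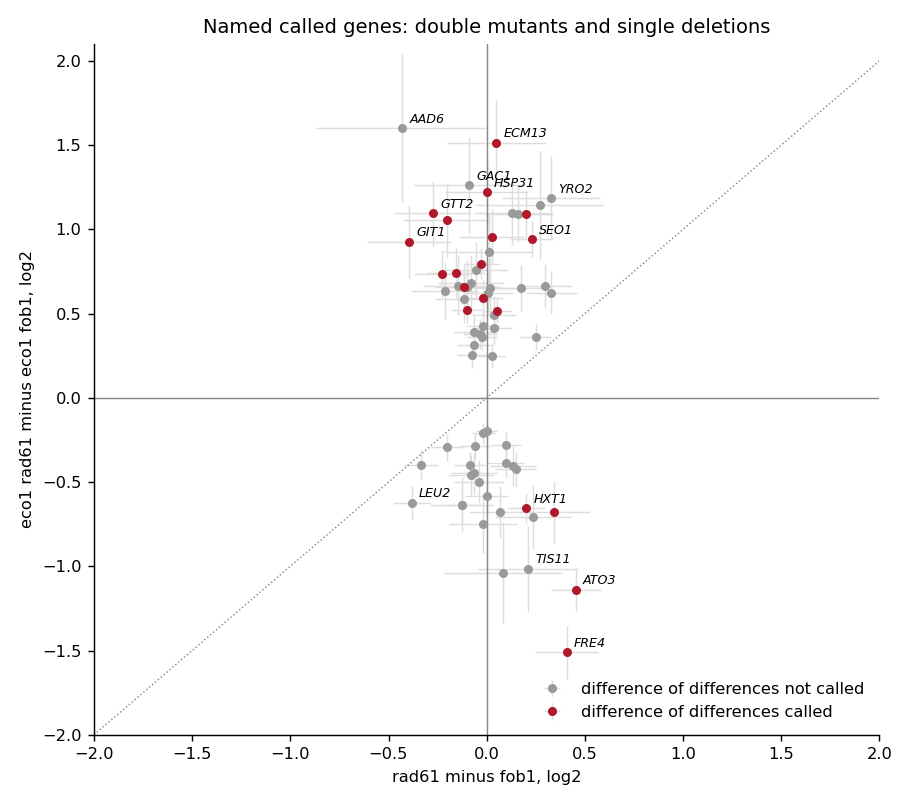
Log2 difference between the double mutants (vertical axis) against that between the single deletions (horizontal axis) for the named called genes within 2 log2 units, with bars for the limma SE; red points are genes at which the differences themselves differed. Only genes called between the double mutants are plotted, many of them picked by the size of that difference. Their spread along the vertical axis and their distance from the dotted line of equal differences follow in part from this choice. ECM13, for instance, lies at 1.51 against 0.05.

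The difference between these contrasts was tested directly and was called at 78 probe sets, or 1.36% (limma, 877 at an unadjusted p under 0.05). Of these, 60 were more positive and 18 more negative in the presence of the eco1 mutation, and 70 were also among the 284. FIT2, FIT3 and FRE3 led, followed by FRE4 at -1.92 ± 0.22 and ATO3 at -1.59 ± 0.18. Of 32 iron regulon genes 7, FIT2, FIT3 and FRE3 included, were called lower in this test, against 18 of all 5716 probe sets. SIT1, which had missed the threshold between the double mutants, was among them at -1.22 ± 0.29 (adjusted p = 0.0364). Of 56 Msn2 and Msn4 targets 8 were called higher, and of 16 citric acid cycle genes 3, against 60 of all 5716 probe sets. Of 21 glycogen and trehalose genes only PGM2 was called, at 0.93 ± 0.23. Of 38 respiratory chain genes 0 were called in this test, with a median of 0.27. The difference in that list was thus not shown gene by gene to depend on the eco1 mutation. Without rad61 replicate 2 the count of 78 became 112, and without rad61 replicate 1 and fob1 replicates 2 and 3 it was 28, 26 and 28.

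The levels of 4 strains of the earlier date, the double mutants and the single deletions, fell in different patterns. PRX1 was 11.51 ± 0.04 (log2, SD, n = 3) in eco1 rad61, against 10.71 ± 0.12 in eco1 fob1, 10.77 ± 0.12 in rad61 and 10.80 ± 0.09 in fob1, so that eco1 rad61 was the highest of these 4. GPH1 was also highest in eco1 rad61, at 11.42 ± 0.07 against 10.33 ± 0.16, 10.10 ± 0.16 and 9.94 ± 0.17. HXT1 was its mirror, at 11.26 ± 0.10 against 11.92 ± 0.06, 11.95 ± 0.16 and 11.75 ± 0.09. The eco1 single mutant of the later date had 12.02 ± 0.15 for PRX1, 11.54 ± 0.15 for GPH1 and 10.90 ± 0.06 for HXT1, with no test across dates. For other genes eco1 fob1 was the lowest of these 4. GTT2 was 8.20 ± 0.04 there, against 9.30 ± 0.13 in eco1 rad61, 9.03 ± 0.52 in rad61 and 9.31 ± 0.41 in fob1. HSP31 was 10.86 ± 0.05 in eco1 fob1, against 12.08 ± 0.17, 11.77 ± 0.57 and 11.77 ± 0.24. Among strains outside these 4, GTT2 averaged 8.53 in mcd1 REC8 and 8.44 in mcd1 fob1 REC8. At the later date it averaged 8.29 in eco1, 8.02 in wild type and 8.47 in fob1. The HSP31 means were 11.36, 10.94, 12.04, 11.07 and 11.25 in the same order. FRE4 and ATO3 parted on both sides, with FRE4 at 7.95 ± 0.11 in eco1 rad61, 9.46 ± 0.17 in eco1 fob1, 9.32 ± 0.14 in rad61 and 8.91 ± 0.05 in fob1.

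Whole lists also fell in different patterns. Set against the mean of the 12 arrays of these strains, the median over the Msn2 and Msn4 targets was 0.42, 0.60 and 0.44 in the eco1 rad61 cultures and lay between -0.30 and -0.01 in the 9 others. For the glycogen and trehalose genes it was 0.36, 0.48 and 0.42 against values from -0.23 to 0.01. For the iron regulon the eco1 fob1 cultures were the highest, at 0.22, 0.16 and 0.14, and the eco1 rad61 cultures, at -0.13, -0.06 and -0.10, lay within the range of the single deletions, from -0.14 to 0.13.

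Genes of chromosome I were slightly higher in eco1 rad61 as a block. Of 90 genes, 74 had a positive difference, with a median of 0.11. Of the 90, 13 were called higher and 1 lower, against 3.43% and 1.54% of all probe sets. The array medians over the chromosome, relative to the mean of the 6 arrays, were 0.09, 0.07 and 0.05 in eco1 rad61 and -0.06, -0.05 and -0.08 in eco1 fob1, with no overlap. On the same scale the eco1 single mutant, of the later date, lay at 0.04 to 0.09, wild type at -0.21 to -0.17, and the other groups between -0.13 and -0.05. On the other chromosomes the median difference ran from -0.04 to 0.02. SEO1, ACS1, ADE1, KIN3, RFA1 and the chaperone gene SSA1 are called genes of chromosome I, and their differences of 0.94, 0.36, 0.25, 0.43, 0.25 and 0.31 include this offset. Leaving the chromosome out gave 266 called probe sets. The part of a chromosome-wide offset in these calls was not tested.

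**Figure D5:**
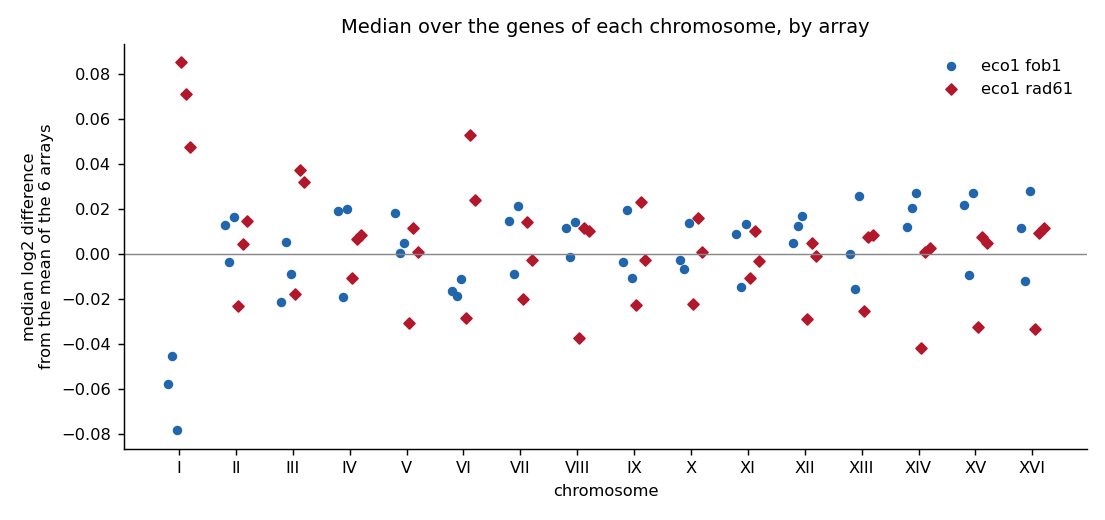
Median over the genes of each chromosome of the log2 difference from the mean of the 6 arrays (vertical axis), with 1 point per array, for eco1 rad61 (red diamonds) and eco1 fob1 (blue circles). On chromosome I the strains part, between 0.05 and 0.09 against -0.08 and -0.05, and on most other chromosomes they intermingle around 0.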

How the data were processed

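The authors deposited 1 linear intensity for each probe set and array, which the submitters' processing notes credit to RMA and R 2.15.2. Whether all arrays were normalised together is not given in the sources used here. The planned tests allowed for log2 values, and log2 was taken from the deposited intensity first. The 51 control and 47 reporter probe sets among the 5814 were set aside. Of the 5716 tested, 5498 had 1 gene symbol and 218 none. Names came from the platform's gene table, with 12 symbols updated through the R64 gene table, which also gave neighbours. A gene with several probe sets was represented by the brightest. Arrays have no depth; their number limits the precision.

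Groups came from the strain labels. One model of 9 group means over the 27 arrays was fitted with limma 3.58.1 in R 4.3.3, which leaves 18 residual degrees of freedom. Tests were two-sided, p-values were adjusted over all probe sets by Benjamini-Hochberg, and calls were made under 0.05. Errors are limma SE or SD over 3 cultures. List differences are counts and medians without a set test; 35 lists held 1301 measured entries.

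The comparison, its gene lists and its tests were chosen with earlier results of these data known. The named genes are ECO1, FOB1, RAD61, MCD1, REC8 and neighbours of FOB1 and RAD61, the 12 highest and 12 lowest called genes without overlap, up to 4 called members per list (the largest difference where none was called), and the 5 largest called interactions. List members named beyond this, levels of other groups and the genes around FRE3 were chosen after their values were seen.

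On simulated data for this contrast, with 5716 genes, the model recovered 88 of 100 genes changed 1.5-fold and 100 of 100 changed 2-fold, with 4.57% false calls. The simulated noise was independent between genes and arrays, and no change under 1.5-fold was simulated. The median called difference, 0.44 (log2), is smaller than that, so these rates do not carry over to the calls as a whole. Deviations of same-numbered cultures of the strains correlated at 0.07, 0.40 and 0.03, above 0.1 for only 1 of 3 pairs. Those of differently numbered cultures ran from -0.32 to 0.25. The numbers were not taken as pairs in the main fit. The alternatives are given in the closing section. Promoter motifs were planned but not analysed here.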

Additional observations from a re-analysis of the deposited data

Results flagged for a closer look

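The difference between the double mutants was not the same as that between the single deletions at 78 probe sets by limma's interaction test, and 22 named genes were among them. On the negative side the tested difference of differences was -8.64 (log2) for FIT2 and -5.14 for FRE3, both limited by background signal. It was -6.33 for FIT3, -1.92 for FRE4, -1.59 for ATO3, -1.02 for the siderophore transporter gene ARN2 and -0.86 for HXT1. On the positive side it was 1.47 for ECM13, 1.37 for GTT2, 1.32 for GIT1, 1.25 for YNL134C and 1.22 for HSP31. Smaller positive values were 0.96 for HXK1, 0.93 for PGM2, 0.90 for CAT8, 0.89 for RTN2, 0.83 for PRX1, 0.77 for SDH2, 0.71 for SEO1, 0.62 for LSC2, 0.61 for MF(ALPHA)1 and 0.46 for SNZ3.

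In probe sets outside the tested genes, 1 reporter probe set of the array was over 2-fold above every wild-type array in all 3 eco1 rad61 cultures. Its log2 signal was between 14.52 and 14.57 there and at most 3.89 in eco1 fob1, and 14.43 on average in the rad61 single deletion. A further 6 reporter probe sets were at background in the eco1 fob1 cultures, between 3.37 and 4.87, and over 2-fold below every wild-type array. In the eco1 rad61 cultures they ran from 4.51 to 13.37, and rad61 replicate 2 was low at all 6. The identity of these reporters is not given in the sources used here, and their part in the results was not tested.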

How the results depend on the processing

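None of the 74 called named genes changed direction. Of these, 35 kept their call under every alternative that tested them (14 to 16 each) and 39 lost it under at least 1. FIT2, FIT3, FRE3, FRE4, ATO3, ECM13, HSP31, GTT2, GPH1, RTN2, RIM4, PGM2, PRX1, CIT1, SDH2, HXT1 and MIG3 were among the 35. RFA1, EGT2, ARE1, ADE1, BRN1 and GPD2 were among the 39. The 284 calls became 134 (without eco1 fob1 replicate 2) to 364 (without rad61 replicate 2) when 1 array was left out (177, 167 and 149 without eco1 rad61 replicates 1, 2 and 3; 223, 134 and 165 without those of eco1 fob1), 500 with the earlier date alone and 394 with only the 6 arrays. The 78 interaction calls became 26 to 112 without 1 array (46, 33 and 33 without eco1 rad61 replicates 1, 2 and 3; 35 and 34 without eco1 fob1 replicates 2 and 3), 161 with the 12 arrays compared and 248 with the earlier date alone. The 2 calls between single deletions became 4 with the earlier date alone and 0 by limma without the dimmest 20% of probe sets (188 at an unadjusted p under 0.05), since FOB1 and RAD61 are themselves among the dim ones. Called respiratory genes, 11, were 22 with the earlier date alone and 4 to 7 without 1 of the 6 arrays compared. Called glycogen and trehalose genes, 14, were 9 without dim probe sets and 6 to 12 without 1 of the 6. Msn2 and Msn4 targets, 31, became 18 to 26, iron genes, 9, became 4 to 6, and citric acid cycle genes, 7, became 5 to 7 without 1 of the 6. Without rad61 replicate 2 the last 3 counts were 35, 9 and 8, and the respiratory and glycogen counts were 11 and 14. Median centring, repeated quantile normalization, an offset of 50 before log2 and a trended robust prior gave between 289 and 301 calls. The cause of these changes was not tested.

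With the replicate block, 603 probe sets were called between the double mutants (354 higher, 249 lower), 335 in the interaction (200 higher, 135 lower) and 11 citric acid cycle genes. The labels do not say whether cultures with the same number are pairs.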

Other observations

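Some called genes outside the lists belong to known groups, which were picked after their values were seen and carry no test as groups. Called higher in eco1 rad61 were 6 aldo-keto reductase genes, which reduce aldehydes and ketones with NADPH. The 6 were chosen with their values known and may not be the whole family. For that reason the counts here and in the groups below are not read against the 3.43% of all probe sets called higher. GCY1 was 11.21, 11.15 and 11.28 (log2) in eco1 rad61 and 10.50, 10.21 and 10.25 in eco1 fob1, a difference of 0.89 ± 0.10. ARA1 had 0.44, GRE3 0.37, YDL124W 0.35, YJR096W 0.33 and YPR1 0.22. Of the 6 genes of the MICOS complex, which shapes the cristae of the inner mitochondrial membrane, MIC60 at 0.43, MIC27 at 0.36, MIC19 at 0.35 and MIC26 at 0.30 were called higher, and MIC10 and MIC12 were not called.

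Of 10 selective autophagy genes 4 were called higher. ATG39, the receptor for autophagy of the nucleus, was 8.94, 8.90 and 8.45 in eco1 rad61 and 7.57, 7.97 and 7.71 in eco1 fob1, or 1.01 ± 0.16. The vacuolar aminopeptidase gene APE1 was higher by 0.57, ATG34 by 0.65 and ATG19 by 0.32. Of 12 measured genes of glucose and cAMP signalling, the G protein gene GPA2 at 0.28, GPB2 at 0.30 and the phosphodiesterase gene PDE1 at 0.32 were higher. GPB2 lies on chromosome I, and its difference includes the offset given above. HAP1, the haem-responsive activator, was lower by -0.30 ± 0.07.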
